A study of Rattus norvegicus with 9 samples.

Results

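The comparison described here is that of the alendronate gel with both other gels of a rat femoral fracture study. All 9 libraries entered it. The 3 libraries of fractures given gel with alendronate (labelled ALN+Gel) were set against the mean of 2 group means, that of 3 libraries from fractures given gel alone (Gel) and that of 3 libraries from fractures given gel with a magnesium-alendronate material (Mg-ALN@Gel, which the titles also call BiMOF). Messenger RNA was taken from the middle of the fracture in every group, so all 9 libraries share the fracture and the gel, and 6 of 9 share alendronate in some form. Age, strain, sex, dose and time after fracture are not given in the labels, and the title of the series speaks of osteoporotic fracture repair without the labels giving a model of bone loss. Of 35360 genes in the count table, 15460 passed the filter on low counts and were tested.

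Alendronate is a nitrogen-containing bisphosphonate. It binds to bone mineral, is taken up by osteoclasts as they resorb bone, and inhibits farnesyl diphosphate synthase, an enzyme of the mevalonate pathway that supplies isoprenoid lipids for the anchoring of small GTPases and, further along, cholesterol. Osteoclasts are multinucleated cells of the monocyte lineage that dissolve mineral with acid pumped out by the vacuolar proton pump and digest the exposed collagen with cathepsin K and matrix metalloproteinase 9. They are rich in mitochondria, and they form and work under control of the cytokine RANKL, its receptor RANK and the hormone calcitonin. In a fracture callus they act beside fibroblasts, osteoblasts and chondrocytes, which build the matrix, and osteocytes, which are buried in it and secrete the Wnt antagonist sclerostin.

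Total counts were 13388689 to 18763270 per library. Libraries of a group varied widely, and edgeR put the common biological coefficient of variation at 51.4%. Mitochondrially encoded genes took 7.61% to 39.5% of the counts in ALN+Gel, 4.16% to 17.5% in Gel and 10.6% to 31.6% in Mg-ALN@Gel. The summed level of 4 skeletal muscle markers ran from 44.2 to 1526 CPM (counts brought to a common library size, with TMM scaling) in ALN+Gel, from 40.8 to 8460 in Gel and from 2.79 to 136 in Mg-ALN@Gel. Nothing in the labels says that replicates came from different animals, and p-values cover the spread between these libraries alone, part of which may be technical. In such tissue samples, fewer cells of a type and less RNA per cell cannot be told apart. Col1a1, the main chain of type I collagen, which fibroblasts also make, measured 10744, 21118 and 29146 CPM in ALN+Gel, 97352, 38566 and 47212 CPM in Gel and 26519.6, 30801 and 33331 CPM in Mg-ALN@Gel. Bglap, the osteocalcin gene of osteoblasts, was at 3.45 CPM in Mg-ALN@Gel library 2 and at 185 to 2292 CPM in the other 8, so that library held little of this bone marker.

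Among the genes whose ALN+Gel libraries lay above all those of both other gels were Ccl9, a chemokine made by osteoclasts, Insig1, a sterol sensor of the endoplasmic reticulum, the osteoclast's calcitonin receptor gene Calcr and the sclerostin gene Sost. The selenoprotein gene Selenow and the acute-phase genes Serpina3n and Ptx3 lay lower. No gene passed the adjusted threshold of 0.05 in edgeR's quasi-likelihood test, which is 0% of the genes tested, and the lowest adjusted p was 0.149. Without adjustment, 903 genes reached a p under 0.05 with higher levels (5.84% of the genes tested) and 436 with lower levels (2.82%), against 773 expected by chance in both directions together. The same edgeR test of Gel against the mean of the other groups gave 440 higher and 867 lower. That of Mg-ALN@Gel gave 775 higher and 662 lower, so a count above 773 was not particular to ALN+Gel. The surplus of higher genes was lost when ALN+Gel library 2 was left out (569 higher and 626 lower) or ALN+Gel library 3 (815 higher and 853 lower). DESeq2 called 170 genes higher (1.1%) and 52 lower (0.336%) at an adjusted p under 0.05. limma-voom with sample quality weights called 212 higher (1.37%) and 19 lower (0.123%). Both called 147 genes, 131 higher and 16 lower, which were 66.2% of the DESeq2 calls and 63.6% of the limma-voom calls.

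A gene was counted as separated when all 3 ALN+Gel libraries lay above, or all below, the other 6. There were 542 genes separated upward (3.51%) and 155 downward (1%). The upward set held 494 protein-coding genes and 39 loci without a biotype. The same count for the Gel libraries against the other 6 gave 274 upward and 600 downward, and for the Mg-ALN@Gel libraries 333 upward and 386 downward, so ALN+Gel did not have more separated genes than the other groups. These 3 counts come from the same 9 libraries. The nearest libraries were at least 2-fold apart for 12 genes upward (0.0776%) and 3 downward (0.0194%) in ALN+Gel, against 1 gene for Gel and 4 for Mg-ALN@Gel.

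The stricter question of whether ALN+Gel differed from Gel and from Mg-ALN@Gel separately, in the same direction, was put to each gene with the larger of the 2 pairwise p-values. No gene passed after adjustment (0%), with a lowest adjusted p of 1. In both pairs, a p under 0.05 before adjustment was reached by 312 genes higher (2.02%) and 136 lower (0.88%), of which 340 were also separated. DESeq2 called 12 genes different from both gels after adjustment, 9 higher and 3 lower. Between Mg-ALN@Gel and Gel edgeR called no gene either (lowest adjusted p 0.53, 1439 genes at an unadjusted p under 0.05), nor did limma-voom, and DESeq2 called 51.

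The separated genes lay close to the vertical midline of the plot of the ALN+Gel contrast against the difference between the other gels, which the rule for separation favours. Among the genes separated upward, the nearest of the 6 other libraries was Gel library 1 for 220 of 542 (40.6%), and between 39 and 97 genes had each of the 5 other libraries as the nearest. Gel library 1 thus stood closest to the ALN+Gel libraries in the genes they held high. Without it there were 936 genes separated upward and 577 downward.

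**Figure D1:**
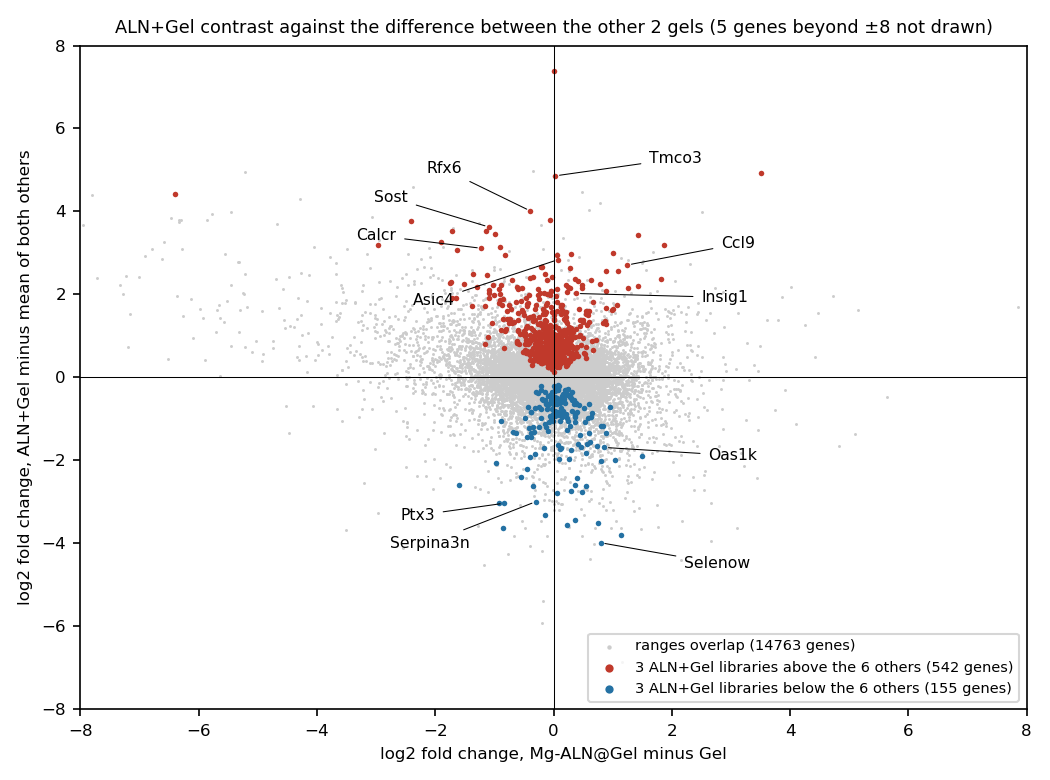
Each point is 1 of the tested genes, with the log2 fold change of Mg-ALN@Gel against Gel on the horizontal axis and that of ALN+Gel against the mean of both on the vertical axis (both from edgeR). Red points are the 542 genes with all 3 ALN+Gel libraries above the other 6, blue points the 155 with all 3 below, and named genes such as Insig1 (2.02) and Selenow (−3.99) lie far from 0 mainly on the vertical axis.

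Insig1 encodes a membrane protein of the endoplasmic reticulum that holds back the sterol-regulated transcription factors when sterols are plentiful and is itself one of their targets. It measured 381, 595 and 369 CPM in ALN+Gel, 91.2, 83 and 116 CPM in Gel and 78.1, 142 and 158 CPM in Mg-ALN@Gel. The 3 ALN+Gel libraries were the 3 highest, and the lowest of them was 2.33-fold above the highest of the others (0.5 CPM added to both). Its log2 fold change against the mean of both gels was 2.02 ± 0.26 (SE), 2.21 against Gel and 1.83 against Mg-ALN@Gel, with an adjusted p of 0.149 in edgeR and 6.3e-08 in DESeq2.

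Ccl9, a chemokine that osteoclasts secrete and that draws their precursors, had the lowest unadjusted p of the comparison. It measured 528, 363 and 154 CPM in ALN+Gel, 35.2, 36.5 and 32.1 CPM in Gel and 89.9, 69.9 and 86.8 CPM in Mg-ALN@Gel. The groups formed 3 steps without overlap, with Gel lowest, Mg-ALN@Gel between and ALN+Gel highest. The log2 fold change was 2.71 ± 0.32 (SE), from 3.33 against Gel and 2.08 against Mg-ALN@Gel, with an adjusted p of 0.149 in edgeR and 6.0e-10 in DESeq2.

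Calcr encodes the receptor through which calcitonin stops osteoclasts from resorbing. Its values were 24.2, 19.1 and 18.2 CPM in ALN+Gel, 6.97, 1.35 and 2.57 CPM in Gel and 1.18, 0.476 and 2.98 CPM in Mg-ALN@Gel. ALN+Gel lay above all other libraries, and Gel library 1 came nearest. The log2 fold change was 3.11 ± 0.58 (SE), with a DESeq2 adjusted p of 0.00039. Sost measured 9.22, 4.45 and 6.92 CPM in ALN+Gel, 1.85, 0.282 and 0.313 CPM in Gel and 0.236, 0.119 and 0.761 CPM in Mg-ALN@Gel. It was a weakly expressed gene in every group, with 71 to 119 counts in the ALN+Gel libraries and 2 to 26 in the other 6. Its log2 fold change was 3.62 ± 0.73 (SE), with an edgeR adjusted p of 0.277 and a DESeq2 adjusted p of 0.0010.

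Among the other genes separated upward by 2-fold or more, Tmco3, named for a transmembrane and coiled-coil domain protein, measured 3.95, 6.52 and 2.79 CPM in ALN+Gel, 0.0711, 0.225 and 0.125 CPM in Gel and 0, 0.357 and 0.0634 CPM in Mg-ALN@Gel. Rfx6, a transcription factor known from pancreatic endocrine cells, measured 6.28, 1.76 and 1.58 CPM in ALN+Gel, 0.498, 0.113 and 0.0626 CPM in Gel and 0, 0.476 and 0 CPM in Mg-ALN@Gel. Cd207, the gene of the Langerhans cell lectin langerin, measured 3.87, 4.7 and 2.61 CPM in ALN+Gel, 0.142, 1.01 and 0.752 CPM in Gel and 0.866, 0.238 and 0 CPM in Mg-ALN@Gel. None of them passed 1.01 CPM in any of the other 6 libraries, and all lay above that in every ALN+Gel library.

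Asic4, of the acid-sensing ion channel family, measured 20.3, 12.6 and 6.5 CPM in ALN+Gel, 2.35, 1.8 and 1.19 CPM in Gel and 0.866, 2.02 and 2.73 CPM in Mg-ALN@Gel, a log2 fold change of 2.84 ± 0.46 (SE). Cym, the gene of the milk-clotting protease chymosin, measured 8.52, 8.9 and 7.22 CPM in ALN+Gel, 2.35, 1.8 and 1.19 CPM in Gel and 2.44, 1.49 and 0.127 CPM in Mg-ALN@Gel. Both were low but present in each of the other libraries. Of 4 loci with no gene name that were separated this far, the one at chromosome 4, 140810672 to 140811102 (in the coordinates of the deposited table, whose genome build is not given in the sources used here) had 32, 11 and 15 counts in ALN+Gel and 0 in the 6 others. Its ALN+Gel mean of 1.36 CPM was at least 5.76-fold above the level of 3 counts in the library where that level is highest, an allowance that covers counting error only.

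Selenow encodes selenoprotein W, a small antioxidant selenoprotein. It measured 1.01, 2.51 and 7.28 CPM in ALN+Gel, 47.4, 41.1 and 42.8 CPM in Gel and 117, 52.6 and 58.8 CPM in Mg-ALN@Gel. Every ALN+Gel library lay at least 5.35-fold below the lowest of the others (0.5 CPM added to both), the widest gap among the 3 genes separated downward by 2-fold. The log2 fold change was −3.99 ± 0.62 (SE), with an edgeR adjusted p of 0.175 and a DESeq2 adjusted p of 6.0e-10. The selenoproteins did not follow as a group: of 17 tested, 7 had positive and 10 negative fold changes, with a median of −0.01, and Selenow was the 1 member that was separated. Dppa4, a gene of pluripotent and germ cells, was the second of the 3 genes, at 0.697, 0.752 and 0.85 CPM in ALN+Gel, 2.49, 6.82 and 2.38 CPM in Gel and 8.42, 2.74 and 6.03 CPM in Mg-ALN@Gel. The uncharacterised gene AC118957.1 was the third, at 0, 0.69 and 0.728 CPM in ALN+Gel, 6.19, 5.07 and 5.2 CPM in Gel and 2.36, 1.96 and 4.38 CPM in Mg-ALN@Gel.

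**Figure D2:**
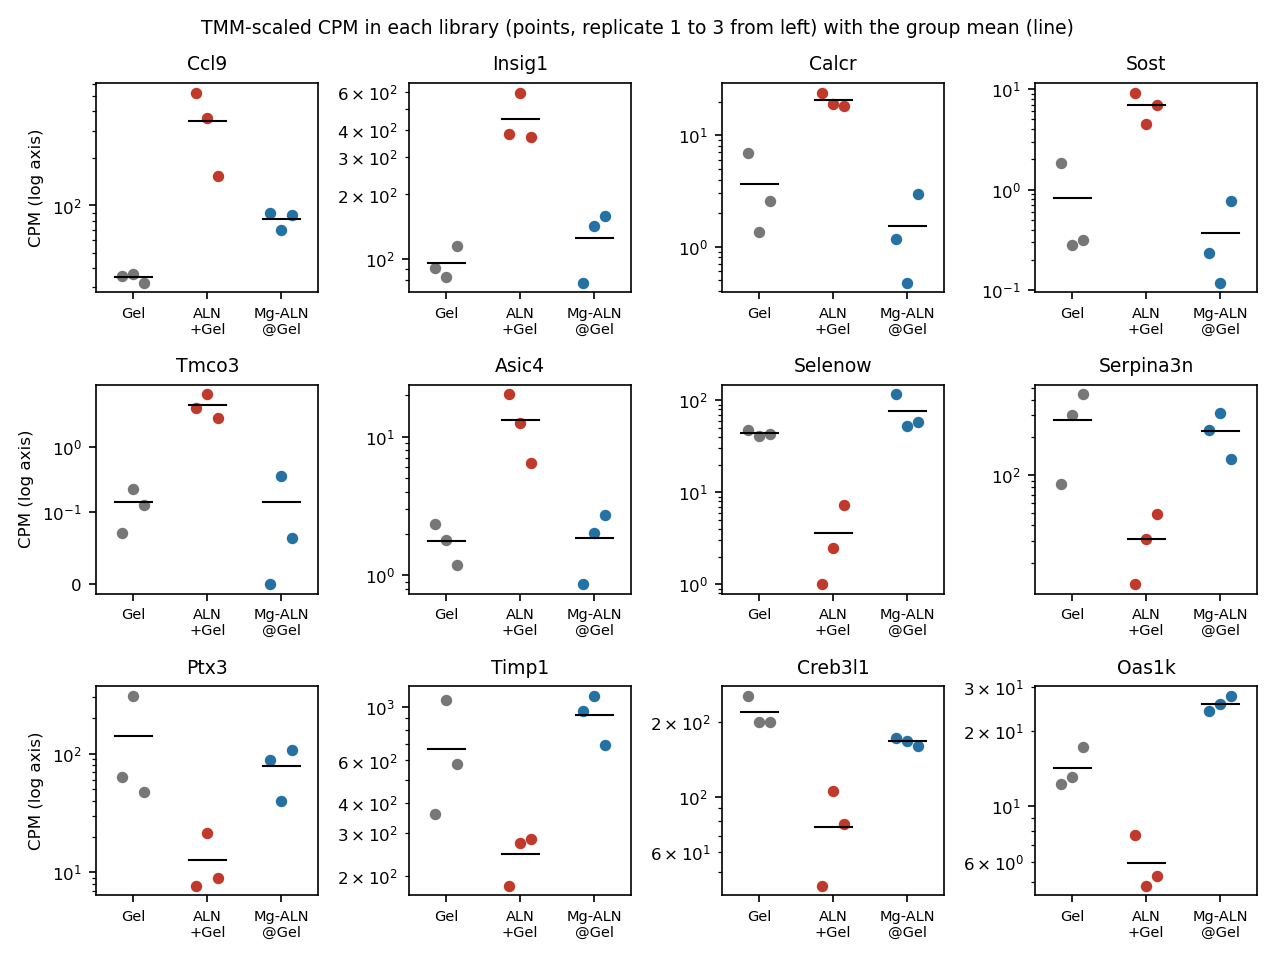
TMM-scaled CPM of 12 genes in each library, on a log axis that is linear near 0 where a library holds 0, with points for replicates 1 to 3 from left to right in each group and a line at the group mean. Red ALN+Gel points lie above all others in the panels of Ccl9, Insig1, Calcr, Sost, Tmco3 and Asic4 and below all others in the panels of Selenow, Serpina3n, Ptx3, Timp1, Creb3l1 and Oas1k.

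The machinery of bone resorption was the list that stood highest in ALN+Gel. Of 20 osteoclast resorption genes tested, 18 had positive fold changes and 11 were separated upward, none downward, and the median log2 fold change was 1.39, against 0.04 over all genes tested. The median was 1.41 against Gel and 1.42 against Mg-ALN@Gel. edgeR called no member after adjustment, DESeq2 called 5 higher and limma-voom 6. Over all genes tested 54.1% had positive values, 3.51% were separated upward and 1% downward. DESeq2 called 1.1% of all genes tested higher and limma-voom 1.37%. These shares also apply to the lists that follow. The median of the resorption list stayed between 1.16 and 1.69 when any 1 library was left out, and was 1.23 with the mitochondrial share as a covariate.

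Among the proteases, Ctsk, the gene of the collagen-digesting cathepsin K, measured 14507, 12778 and 10019.9 CPM in ALN+Gel, 8519.7, 2413 and 1259 CPM in Gel and 2011, 7079 and 7584 CPM in Mg-ALN@Gel. All 3 ALN+Gel libraries were above the other 6, with Gel library 1 and Mg-ALN@Gel libraries 2 and 3 nearest, and the log2 fold change was 1.39 ± 0.62 (SE) with an unadjusted p of 0.0526. Mmp9, the gelatinase of osteoclasts and neutrophils, measured 5967, 7949 and 5236 CPM in ALN+Gel, 2619, 681 and 352 CPM in Gel and 615, 2184 and 2292 CPM in Mg-ALN@Gel, a log2 fold change of 2.15 ± 0.62 (SE) and a DESeq2 adjusted p of 0.034. Acp5, the osteoclast's tartrate-resistant acid phosphatase, measured 9812, 5512 and 5357 CPM in ALN+Gel, 6387, 888 and 415 CPM in Gel and 958, 1364 and 2014 CPM in Mg-ALN@Gel. Its ranges overlapped, since Gel library 1 lay above 2 of the ALN+Gel libraries, and the log2 fold change was 1.84 ± 0.73 (SE).

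Among genes of acid secretion and attachment, Tcirg1, the proton pump subunit enriched at the osteoclast's ruffled border, measured 596, 659 and 494 CPM in ALN+Gel, 383, 288 and 169 CPM in Gel and 219.8, 266 and 330.2 CPM in Mg-ALN@Gel, a log2 fold change of 1.08 ± 0.27 (SE). Src, the kinase that organises the osteoclast's cytoskeleton, measured 358, 449.6 and 314 CPM in ALN+Gel, 203, 116 and 105 CPM in Gel and 83.5, 165 and 180.3 CPM in Mg-ALN@Gel, with a log2 fold change of 1.39 ± 0.30 (SE) and a DESeq2 adjusted p of 0.007. Atp6v0d2, a pump subunit needed for fusion of precursors, gave 2.03 ± 0.59 (SE), and Siglec15, a receptor of the osteoclast surface, gave 2.03 ± 0.71 (SE), both separated. Itgb3, the β3 integrin by which osteoclasts attach, gave 1.52 ± 0.72 (SE) with overlapping ranges. The 2 members with negative values were Mmp14 at −0.51 and Pstpip2 at −1.50, both with overlapping ranges.

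Per length, and as means of the deposited FPKM values, Ctsk stood at 8486 in ALN+Gel, 2831 in Gel and 3842 in Mg-ALN@Gel. Acp5 stood at 4290.2 in ALN+Gel, 1626 in Gel and 916 in Mg-ALN@Gel. On the same FPKM scale Calcr was a rare transcript, at 5.61 in ALN+Gel, 1.02 in Gel and 0.431 in Mg-ALN@Gel. The genes with the widest gaps were thus not the most abundant transcripts of the osteoclast.

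Genes of osteoclast formation were mixed. Of 23 differentiation and fusion genes tested, 16 had positive and 7 negative values, the median log2 fold change was 0.54, and 5 were separated upward and none downward. Tnfrsf11a, the gene of the RANK receptor, measured 86, 95.8 and 71.4 CPM in ALN+Gel, 50.7, 23.9 and 16.3 CPM in Gel and 24.3, 31.5 and 46.4 CPM in Mg-ALN@Gel, a log2 fold change of 1.39 ± 0.34 (SE) and a DESeq2 adjusted p of 0.032. Mitf, a transcription factor of osteoclasts and of lysosomal genes, measured 72.5, 78.5 and 58 CPM in ALN+Gel, 37.8, 36.4 and 27.5 CPM in Gel and 20, 33.1 and 41.4 CPM in Mg-ALN@Gel, a log2 fold change of 1.09 ± 0.23 (SE). Ccl9, Prdm1 (1.08) and the receptor gene Csf1r (0.76) completed the separated members.

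The ligands of these receptors and the decoy receptor were not separated. Tnfsf11, the gene of RANKL, was at 0.0775 to 2.38 CPM in ALN+Gel and 0 to 10.7 CPM in the others, a log2 fold change of −2.14 ± 1.65 (SE). Tnfrsf11b, the gene of its decoy receptor osteoprotegerin, gave −0.86 ± 0.50 (SE). Csf1, the ligand of Csf1r, gave 0.36 ± 0.21 (SE). Nfatc1, the master transcription factor of the lineage, gave 1.32 ± 0.50 (SE) with overlapping ranges.

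The summed level of 8 osteoclast markers was 15950 to 24998 CPM in ALN+Gel, 1787 to 15288 CPM in Gel and 3032 to 9891 CPM in Mg-ALN@Gel, so that the ALN+Gel range lay just above that of Gel. Most of this sum was Ctsk and Acp5, and of 7 markers tested 3 were separated, Ctsk, Calcr and Atp6v0d2. One defining marker, the fusion gene Dcstamp, had 0 counts in the other 6 libraries and 0 to 2 in ALN+Gel, and was not tested. Of 19 macrophage genes 17 had negative values, the median log2 fold change was −0.63 (−1.25 without ALN+Gel library 2), and none was separated.

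**Figure D3:**
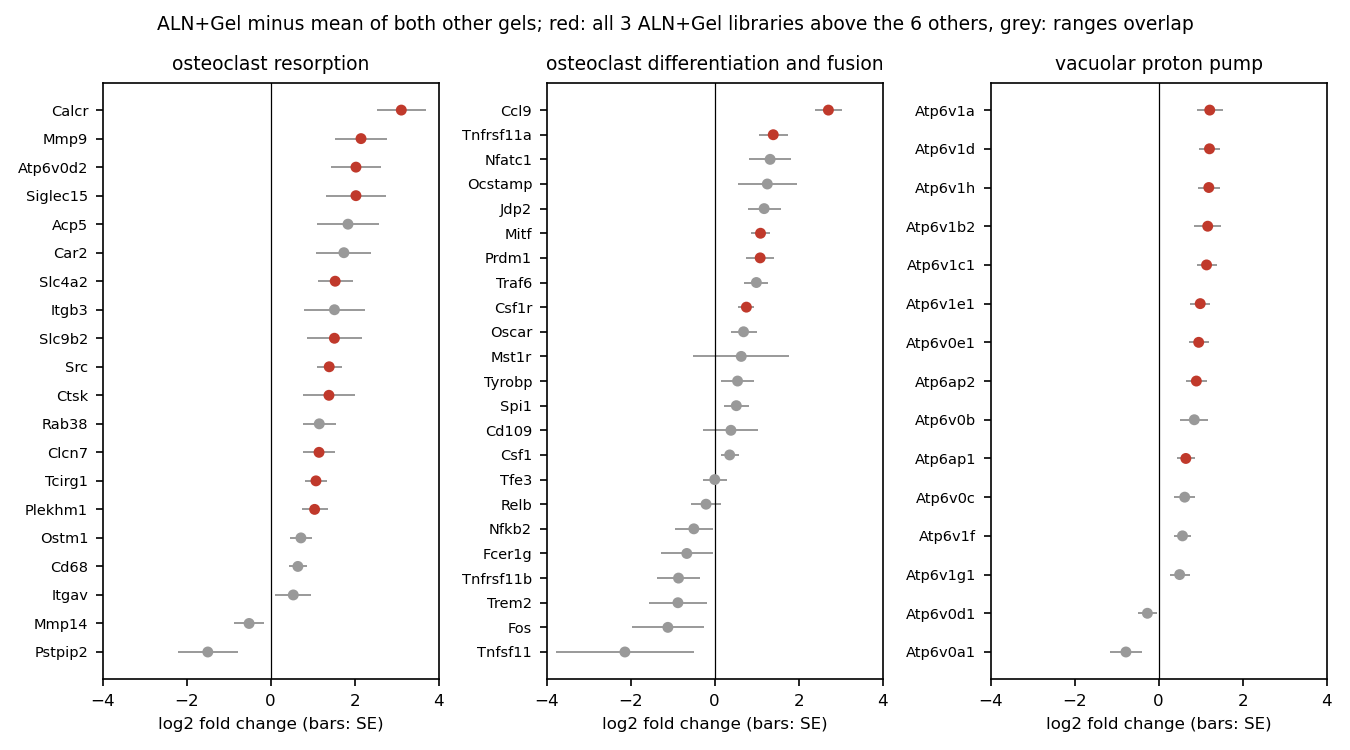
Log2 fold change of ALN+Gel against the mean of both other gels (edgeR, bars are the SE) for the tested members of the lists for osteoclast resorption, osteoclast differentiation and fusion, and the vacuolar proton pump. Red points mark separated members, 11, 5 and 9 in the 3 lists, and the grey points at the foot of each panel lie below 0.

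The vacuolar proton pump, which acidifies lysosomes in all cells and the resorption pit beneath osteoclasts, had most of its genes at higher levels in ALN+Gel. Of 15 subunits and accessory genes tested, 13 had positive values, 9 were separated upward and none downward, and the median log2 fold change was 0.90 (1.08 against Gel and 0.70 against Mg-ALN@Gel). DESeq2 called 6 members and limma-voom 5, against 1.1% and 1.37% of all genes tested, of which 3.51% were separated upward. Atp6v1d, of the rotor stalk, measured 397, 299.8 and 218 CPM in ALN+Gel, 157, 124 and 81.5 CPM in Gel and 141, 144 and 147 CPM in Mg-ALN@Gel, a log2 fold change of 1.21 ± 0.25 (SE). Atp6v1c1 gave 1.14 ± 0.24 (SE) and Atp6v1h 1.19 ± 0.26 (SE), both of the cytosolic V1 part. The 2 negative values belonged to membrane subunits found in many cell types, Atp6v0d1 at −0.27 and Atp6v0a1 at −0.78.

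The lysosome as a whole did not follow its pump. Of 26 lysosomal enzyme and membrane genes, 12 had positive and 14 negative values, with a median of −0.14, and 3 were separated upward and none downward. The 3 were Gusb (β-glucuronidase), Glb1 (β-galactosidase) and Neu1 (neuraminidase). Gusb measured 810.2, 648 and 519 CPM in ALN+Gel, 332, 127 and 100 CPM in Gel and 112, 221 and 283 CPM in Mg-ALN@Gel, a log2 fold change of 1.75 ± 0.41 (SE). Glb1 measured 382, 286 and 330.2 CPM in ALN+Gel, 249, 136 and 151 CPM in Gel and 153, 182 and 162 CPM in Mg-ALN@Gel, a log2 fold change of 0.95 ± 0.22 (SE). Cathepsins that macrophages express lay the other way without separation, with Ctsb at −0.78, Ctsl at −1.70 and Ctss at −0.66.

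Lysosomal and osteoclast acidification genes are known targets of the MITF and TFEB family of transcription factors, which bind the letters TCACGTG. The RefSeq promoter table (assembly GRCr8, 250 bases before to 50 after each start) matched 10328 tested genes by symbol. TCACGTG, searched on both strands, was present in 5.30% of those promoters. It was present in 5 of 19 promoters of the lysosomal list (26.3%), 2 of 12 of the proton pump (16.7%) and 1 of 13 of osteoclast resorption (7.69%), and in 28 of 370 promoters of genes separated upward (7.57%) and 7 of 106 of those separated downward (6.60%). The shares among genes separated upward and downward were close to each other. The 250 bases before the start of 3 genes are shown because they hold the letters (in capitals, overlapping matches on both strands merged) while their levels differ: Clcn7, the chloride channel of the resorption pit, and Glb1 were separated upward, and Ctsd, the gene of cathepsin D, was not. They are chr10:14656011-14656260 on the + strand, chr8:122963468-122963717 on the + strand and chr1:206968822-206969071 on the − strand of GRCr8, each read 5′ to 3′ along its gene.
Clcn7: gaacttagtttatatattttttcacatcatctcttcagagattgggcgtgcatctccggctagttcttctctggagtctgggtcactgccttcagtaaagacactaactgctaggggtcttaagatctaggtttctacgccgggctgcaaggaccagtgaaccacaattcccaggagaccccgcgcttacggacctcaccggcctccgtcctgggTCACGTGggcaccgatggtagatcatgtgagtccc
Glb1: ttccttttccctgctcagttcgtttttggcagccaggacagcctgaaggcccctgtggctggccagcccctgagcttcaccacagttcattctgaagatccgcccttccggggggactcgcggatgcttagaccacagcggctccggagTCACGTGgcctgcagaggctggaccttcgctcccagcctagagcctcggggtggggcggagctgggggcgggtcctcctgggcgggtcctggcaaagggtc
Ctsd: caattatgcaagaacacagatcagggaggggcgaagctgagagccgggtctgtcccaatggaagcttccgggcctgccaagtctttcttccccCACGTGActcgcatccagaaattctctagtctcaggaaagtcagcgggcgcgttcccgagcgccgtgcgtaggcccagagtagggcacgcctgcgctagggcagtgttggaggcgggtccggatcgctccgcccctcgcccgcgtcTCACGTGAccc
Clcn7 gave a log2 fold change of 1.15 ± 0.37 (SE) with its match starting 35 bases before the start, Glb1 0.95 ± 0.22 (SE) with a match 101 bases before, and Ctsd −0.34 ± 0.47 (SE) with matches 157 and 11 bases before. A match is a description of the sequence and not a measured binding site.

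The pathway that alendronate inhibits showed small positive values. All 10 genes tested of the isoprenoid arm of the mevalonate pathway had positive fold changes, with a median of 0.50. Of these 1 was separated, against 3.51% of all genes tested. None passed an unadjusted p under 0.05 against both gels, against 2.02% of all genes tested higher. The median was 0.68 against Gel and 0.28 against Mg-ALN@Gel, so the values lay nearer to those of the other alendronate gel. The difference between these medians was not tested.

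Fdps, the gene of the farnesyl diphosphate synthase that alendronate inhibits, measured 78.1, 88.4 and 76.2 CPM in ALN+Gel, 43.3, 44.8 and 43.5 CPM in Gel and 74.3, 76.8 and 51.1 CPM in Mg-ALN@Gel. The ALN+Gel libraries lay above all Gel libraries and overlapped Mg-ALN@Gel, and the log2 fold change was 0.57 ± 0.17 (SE). Idi1, which isomerises the substrate of that enzyme, measured 27.4, 36 and 27.1 CPM in ALN+Gel, 10.7, 12.7 and 12.1 CPM in Gel and 21.3, 30 and 25.5 CPM in Mg-ALN@Gel. It had the same order, with all 6 libraries of the alendronate groups above the 3 of Gel, and a log2 fold change of 0.79 ± 0.18 (SE). Fdft1, which commits farnesyl diphosphate to sterols, was the separated member, at 39.2, 39.4 and 40.1 CPM in ALN+Gel, 21.7, 19.7 and 25.9 CPM in Gel and 26.8, 31.5 and 38.6 CPM in Mg-ALN@Gel.

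Of 11 genes of the later steps to cholesterol, 10 had positive values, with a median of 0.38 (0.64 against Gel and 0.05 against Mg-ALN@Gel), and 3 were separated. Msmo1 measured 43.6, 49.5 and 37.2 CPM in ALN+Gel, 13.2, 22.3 and 19.4 CPM in Gel and 31.6, 32 and 26.4 CPM in Mg-ALN@Gel, a log2 fold change of 0.89 ± 0.20 (SE) and a DESeq2 adjusted p of 0.031. Cyp51 measured 67.7, 93.9 and 70 CPM in ALN+Gel, 38, 36.3 and 43 CPM in Gel and 60.2, 60.2 and 65.7 CPM in Mg-ALN@Gel, a log2 fold change of 0.65 ± 0.16 (SE). Sc5d gave 0.69 ± 0.20 (SE). For Msmo1 and Cyp51 the groups formed 3 steps without overlap, with Gel lowest and ALN+Gel highest.

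Of 17 genes of sterol sensing and uptake 10 were positive and 7 negative, with a median of 0.06, and Insig1 was the 1 separated member. Insig2, its paralog, gave 0.10 ± 0.23 (SE). Abca1, the cholesterol exporter, gave −0.99 ± 0.34 (SE) with overlapping ranges. The 9 protein prenylation genes, whose enzymes use the isoprenoids, had a median of −0.14 and no separated member. The sterol regulatory element TCACNCCAC, searched on both strands, was found in 0 of 30 promoters that the RefSeq table holds for the isoprenoid, late cholesterol and sterol sensing lists. It was found in 1.12% of the promoters of tested genes. At that share 30 promoters would mostly hold no match, so the 0 does not set these lists apart. The table holds no promoter under the symbol Insig1.

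Most listed nuclear genes of the mitochondrion had positive fold changes in ALN+Gel. Of 39 nuclear-encoded respiratory chain genes, 38 had positive values, 13 were separated upward and none downward, and the median log2 fold change was 0.56 (0.83 against Gel and 0.39 against Mg-ALN@Gel). DESeq2 called 6 members and limma-voom 7, against 1.1% and 1.37% of all genes tested, of which 3.51% were separated upward. Cyc1, the cytochrome c1 gene of complex III, measured 180.5, 166 and 133 CPM in ALN+Gel, 88.7, 92.3 and 75.1 CPM in Gel and 106, 111 and 96.1 CPM in Mg-ALN@Gel, a log2 fold change of 0.76 ± 0.16 (SE) and a DESeq2 adjusted p of 0.0055. Cycs, the gene of cytochrome c itself, measured 242, 185 and 149.8 CPM in ALN+Gel, 93.8, 107 and 79.2 CPM in Gel and 93.7, 135 and 116 CPM in Mg-ALN@Gel. Sdhb, a subunit of complex II, measured 187, 158 and 118 CPM in ALN+Gel, 82.8, 92.5 and 74.8 CPM in Gel and 91.9, 89.5 and 103 CPM in Mg-ALN@Gel. In all 3 genes the ALN+Gel libraries held the 3 highest values, with library 3 the lowest of them.

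Genes of the citric acid cycle followed. Of 18 genes of the cycle and of mitochondrial biogenesis, 16 were positive and 7 separated upward, none downward, with a median of 0.37. Mdh2, the mitochondrial malate dehydrogenase, measured 198, 199 and 161 CPM in ALN+Gel, 108, 110.3 and 108 CPM in Gel and 157, 139 and 127 CPM in Mg-ALN@Gel, a log2 fold change of 0.58 ± 0.15 (SE). The genes that govern mitochondrial DNA were near 0, with Tfam at −0.01 ± 0.22 (SE) and Polrmt at −0.07 ± 0.25 (SE), while Ppargc1b, a coactivator of mitochondrial genes that osteoclasts use, gave 1.47 ± 0.53 (SE) with overlapping ranges.

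Each library was scored for the nuclear-encoded chain as the mean over its members of log2 CPM centred on each gene. That score rose with the mitochondrial share of the library within Gel and within ALN+Gel, but not within Mg-ALN@Gel. There library 3, with a share of 31.6%, scored −0.11, and library 1, with 11.2%, scored 0.26. ALN+Gel library 3 scored 0.06, below that library 1, so the scores of the 2 groups overlapped. The 13 mitochondrially encoded genes all had positive values, with a median of 0.96, and none was separated. That median turned to −0.20 without ALN+Gel library 1, whose mitochondrial share was 39.5%, and was 0.01 with the share as a covariate. The median of the nuclear-encoded chain was 0.44 without that library, the lowest when 1 library was left out, and 0.50 with the covariate. It was 0.37 when the 2 libraries with the highest shares were left out (replicate 1 of ALN+Gel and replicate 3 of Mg-ALN@Gel), a choice made after seeing the data.

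Ribosomal genes were also positive. Of 29 cytosolic ribosomal protein genes 28 were positive, with a median of 0.54 (0.84 against Gel and 0.25 against Mg-ALN@Gel) and 3 separated, Rplp2, Rps19 and Rps4x. Ribosomal protein genes have many near-identical pseudogenes, so single values are uncertain. Of 23 mitochondrial ribosome genes 21 were positive, with a median of 0.35 and 1 separated, Mrpl16. That median was 0.09 without the 2 libraries of highest mitochondrial share. The 24 proteasome genes had a median of 0.18 and none separated.

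**Figure D4:**
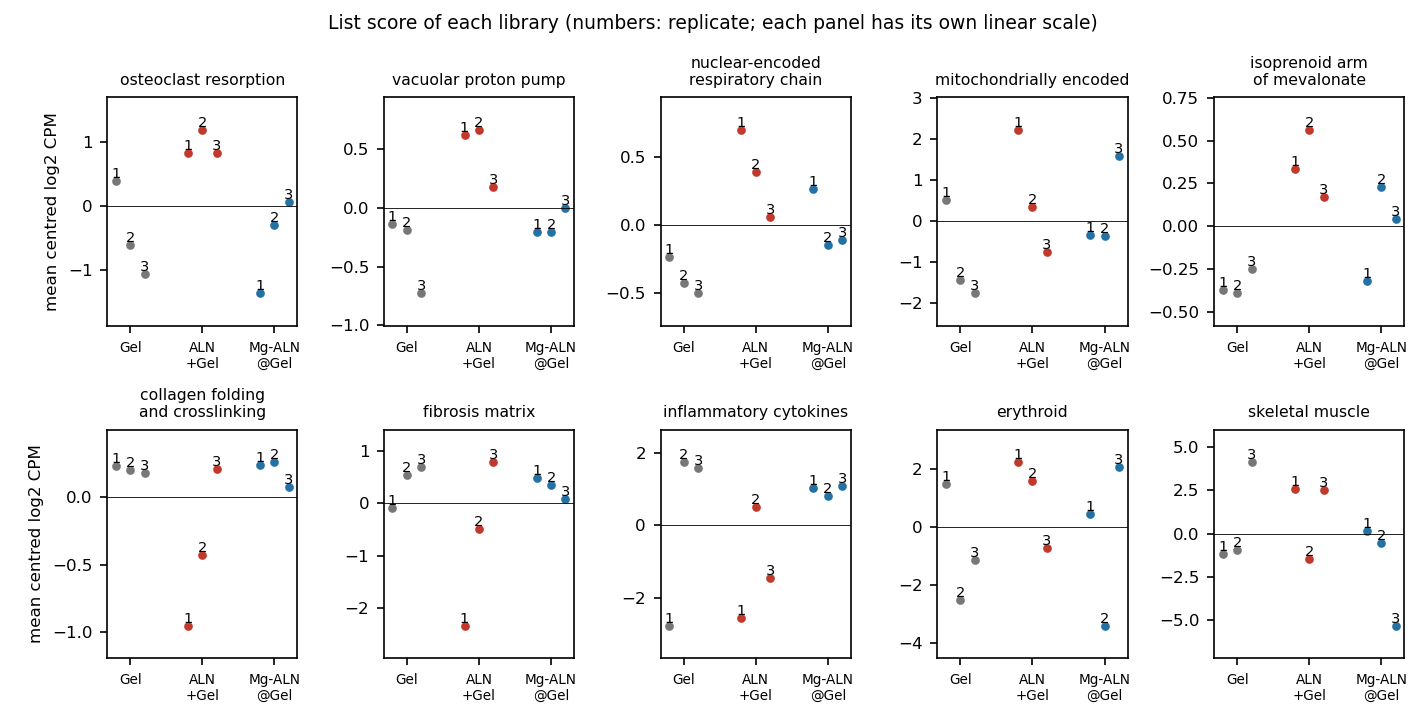
Score of each library for 10 gene lists, the mean over the tested members of log2 CPM centred on each gene, with replicate numbers beside the points. All 3 ALN+Gel libraries lie highest for osteoclast resorption (0.82 to 1.19) and the vacuolar proton pump (0.18 to 0.66), whereas for collagen folding, fibrosis matrix and inflammatory cytokines they spread widely and overlap the other groups.

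Most genes that fold and cross-link collagen had lower means in ALN+Gel. Of 21 tested, 20 had negative values, 5 were separated downward and none upward, and the median log2 fold change was −0.58 (−0.58 against Gel and −0.54 against Mg-ALN@Gel). It was −0.31 with ALN+Gel library 1 left out, −0.92 when ALN+Gel library 3 was omitted and −0.35 without the 2 libraries of highest mitochondrial share. DESeq2 and limma-voom each called 3 members lower, against 0.336% and 0.123% of all genes tested, of which 1% were separated downward. Serpinh1, the collagen chaperone HSP47, measured 779.9, 910.3 and 1303 CPM in ALN+Gel, 2064, 1948 and 1515 CPM in Gel and 2165, 2025 and 1907 CPM in Mg-ALN@Gel, a log2 fold change of −0.96 ± 0.27 (SE) and a DESeq2 adjusted p of 0.0026. P3h1, a prolyl hydroxylase of type I collagen, measured 62.5, 77.2 and 92.8 CPM in ALN+Gel, 191, 131 and 102 CPM in Gel and 169, 142 and 140.1 CPM in Mg-ALN@Gel, and Bmp1, which cleaves the collagen propeptide, gave −0.72 ± 0.22 (SE). Pcolce (−0.94) and Fkbp14 (−0.56) were the other 2 separated members.

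Creb3l1, a transcription factor needed by osteoblasts to secrete collagen, measured 44.1, 106 and 77.9 CPM in ALN+Gel, 256, 201 and 200.3 CPM in Gel and 173, 168 and 161 CPM in Mg-ALN@Gel. All 3 ALN+Gel libraries were below all others, and the log2 fold change was −1.33 ± 0.28 (SE) with a DESeq2 adjusted p of 0.0011. Ckap4, a protein of the rough endoplasmic reticulum, was separated as well, at −0.89 ± 0.22 (SE). Genes of the unfolded protein response were not: 20 endoplasmic reticulum stress genes had a median of −0.06, and the 1 that was separated, Canx, lay upward at 0.30 ± 0.18 (SE).

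The collagens and matrix proteins themselves varied more. Of 31 fibrosis matrix genes 28 were negative, with a median of −0.47, and 1 was separated, Sparc, a collagen-binding protein of bone, at −0.77 ± 0.39 (SE). Leaving out ALN+Gel library 3 gave a median of −1.37, and leaving out ALN+Gel library 1 gave −0.18. The score of the latter was the lowest of the 9. Col1a1 gave −1.08 ± 0.58 (SE), with ALN+Gel library 3 inside the range of Mg-ALN@Gel. Of 20 myofibroblast and smooth muscle genes 19 were negative, with a median of −0.56 (−1.16 without ALN+Gel library 3) and 1 separated, Smtn. Acta2, the α-actin of myofibroblasts, gave −1.48 ± 0.80 (SE) with overlapping ranges.

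Genes of TGF-β, the growth factor that drives fibrosis, had few separated members. At the share over all genes tested (3.51% upward, 1% downward), lists of this size would also hold few. Of 21 ligand and receptor genes 11 were positive and 10 negative, with a median of 0.14 whose sign turned in some alternatives. Tgfb1 gave −0.37 ± 0.21 (SE), and Nrros, which holds TGF-β1 on myeloid cells, was the separated member at 0.87 ± 0.22 (SE). Of 20 response genes 13 were negative, with a median of −0.16 and none separated. Ccn2, a standard TGF-β response gene, measured 252, 209 and 869 CPM in ALN+Gel, 357, 336 and 595 CPM in Gel and 1069.7, 199 and 151 CPM in Mg-ALN@Gel, a log2 fold change of −0.02 ± 0.69 (SE). The 19 BMP genes had a median of −0.24 (−0.06 without ALN+Gel library 1) and none separated.

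Matrix proteases and their inhibitors had 1 separated member in each direction. Of 19 tested 16 were negative, with a median of −1.02, which was −0.53 without ALN+Gel library 1 and −0.54 without the 2 libraries of highest mitochondrial share. Timp1, the inhibitor of metalloproteinases, measured 183, 273 and 285 CPM in ALN+Gel, 361, 1062 and 582 CPM in Gel and 957, 1113 and 693 CPM in Mg-ALN@Gel, separated downward with a log2 fold change of −1.67 ± 0.38 (SE) and a DESeq2 adjusted p of 0.0014. Mmp13, the collagenase of osteoblasts and hypertrophic chondrocytes, was separated upward, at 9178, 4684 and 4389 CPM in ALN+Gel, 2443, 4218 and 2697 CPM in Gel and 1961, 2228 and 4175 CPM in Mg-ALN@Gel, with a log2 fold change of 1.04 ± 0.39 (SE). The highest of the other libraries, Gel library 2, lay just below the lowest of ALN+Gel.

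The next 3 genes, named for a low p, are known from the acute-phase response, and no list of such genes was examined. Serpina3n, an acute-phase protease inhibitor, measured 13.6, 30.7 and 49.2 CPM in ALN+Gel, 84.8, 302 and 444 CPM in Gel and 228, 311 and 135 CPM in Mg-ALN@Gel. The highest ALN+Gel library was below the lowest of the others, Gel library 1, and the log2 fold change was −3.00 ± 0.63 (SE) with a DESeq2 adjusted p of 4.8e-05. Ptx3, a soluble pattern recognition protein induced by interleukin 1, measured 7.75, 21.6 and 8.98 CPM in ALN+Gel, 63.5, 309 and 47.7 CPM in Gel and 89.1, 39.7 and 107 CPM in Mg-ALN@Gel, a log2 fold change of −3.04 ± 0.74 (SE). Cebpd, a transcription factor of the acute-phase response, measured 39.5, 59.5 and 60 CPM in ALN+Gel, 97.3, 279.7 and 124 CPM in Gel and 249, 152 and 143 CPM in Mg-ALN@Gel, a log2 fold change of −1.71 ± 0.39 (SE) and a DESeq2 adjusted p of 0.0031.

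The inflammatory cytokines had the lowest median of all lists, and no member was separated. At the share over all genes tested (1% downward), a list of this size would mostly hold none. Of 19 tested 18 were negative, with a median of −1.43, which ran from −3.22 without ALN+Gel library 2 to −0.89 without ALN+Gel library 1. Il6, the gene of interleukin 6, measured 0, 5.14 and 0.85 CPM in ALN+Gel, 1.49, 22.8 and 15.8 CPM in Gel and 62, 46.8 and 27.3 CPM in Mg-ALN@Gel. Gel library 1 was inside the ALN+Gel range, and the log2 fold change was −3.60 ± 1.21 (SE). That library also had the lowest cytokine score of the 9, −2.78, next to ALN+Gel library 1 at −2.56, and the other 5 libraries of the 2 other gels lay between 0.82 and 1.75.

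Of 26 listed genes of chemokines and their receptors 19 were negative, with a median of −0.74 (−1.50 without ALN+Gel library 2) and none separated, and DESeq2 called 2 lower. Ccl9 is not in that list, nor is Ccl22, a chemokine of dendritic cells and macrophages that was chosen after its values were seen and was separated upward, at 16.7, 7.71 and 11.6 CPM in ALN+Gel, 1.85, 2.2 and 3.26 CPM in Gel and 2.05, 1.78 and 4.82 CPM in Mg-ALN@Gel, with a log2 fold change of 2.17 ± 0.41 (SE). Cxcl1, a neutrophil attractant, measured 1.7, 12.5 and 6.01 CPM in ALN+Gel, 5.26, 99.8 and 51 CPM in Gel and 71.1, 77.3 and 67.7 CPM in Mg-ALN@Gel. Of 21 immediate early genes 19 were negative, with a median of −0.74, and 1 was separated, Btg2, at −0.63 ± 0.19 (SE). The 22 interferon-induced genes had a median of −0.22, and Oas1k, of the antiviral oligoadenylate synthetase family, was the 1 separated member. Oas1k measured 7.67, 4.83 and 5.28 CPM in ALN+Gel, 12.2, 13.1 and 17.3 CPM in Gel and 23.9, 25.6 and 27.7 CPM in Mg-ALN@Gel, in 3 groups that did not overlap, with a log2 fold change of −1.69 ± 0.24 (SE) and a DESeq2 adjusted p of 7.0e-09.

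Levels of neutrophil markers, summed over 5 genes, were 79.8 to 497 CPM in ALN+Gel, 120 to 890 CPM in Gel and 515 to 8102 CPM in Mg-ALN@Gel. Most of this sum was S100a8 and S100a9. The ALN+Gel range of the sum lay below that of Mg-ALN@Gel and overlapped that of Gel. For the other markers, Mpo, Elane and Camp, the ALN+Gel and Mg-ALN@Gel ranges overlapped. Elane measured 17.6, 8.27 and 4.98 CPM in ALN+Gel, 4.48, 3.21 and 3.01 CPM in Gel and 14.3, 0.833 and 9.39 CPM in Mg-ALN@Gel. The part of neutrophils in the lower inflammatory genes was not tested. The 18 neutrophil genes had a median of 0.02, with 1.07 against Gel and −1.02 against Mg-ALN@Gel.

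Sost stood alone among osteocyte genes. Of 13 tested 5 were positive and 8 negative, with a median of −0.16, and no other member was separated. Dmp1, a matrix protein gene of osteocytes, measured 207, 37.8 and 43 CPM in ALN+Gel, 251, 126 and 51.2 CPM in Gel and 127, 4.4 and 196 CPM in Mg-ALN@Gel, a log2 fold change of −0.38 ± 0.98 (SE). Mepe, another, measured 65, 14.1 and 47.1 CPM in ALN+Gel, 51.3, 26.2 and 13.5 CPM in Gel and 34.3, 1.61 and 41.1 CPM in Mg-ALN@Gel, a log2 fold change of 0.59 ± 0.81 (SE). The summed level of 5 osteocyte markers was 57.9 to 289 CPM in ALN+Gel, 72.9 to 352 CPM in Gel and 9.94 to 246 CPM in Mg-ALN@Gel, ranges that overlap throughout.

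Other listed genes of the Wnt pathway, which sclerostin antagonises, were not separated. Of 10 other genes listed as secreted Wnt antagonists, Tnfrsf11b among them, 9 were negative, with a median of −0.49 (−0.95 without ALN+Gel library 3, −0.22 when library 1 of that group was omitted), among them Sfrp2 at −1.43 ± 0.80 (SE). Of 21 Wnt receptors and targets 9 were positive and 12 negative, with a median of −0.18. Axin2, a common readout of the pathway, gave 0.21 ± 0.47 (SE). Neither list had a separated member, and lists of this size would hold few at the share over all genes tested (3.51% upward, 1% downward).

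Osteoblast and cartilage genes did not set ALN+Gel apart from both gels. The 22 osteoblast genes had a median of 0.23, made of −0.62 against Gel and 0.65 against Mg-ALN@Gel, and −0.09 without ALN+Gel library 1, and Creb3l1 was the 1 separated member. The 18 callus cartilage genes had a median of 0.96, made of −0.16 against Gel and 1.45 against Mg-ALN@Gel. It was 0.19 without ALN+Gel library 3, 2.20 when library 3 of Mg-ALN@Gel was omitted and 0.24 with the 6 other libraries as 1 group. Col11a1, a fibrillar collagen of cartilage and bone, was separated downward, at 252, 474 and 384 CPM in ALN+Gel, 1728, 733 and 695 CPM in Gel and 610.1, 476 and 610.3 CPM in Mg-ALN@Gel.

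**Figure D5:**
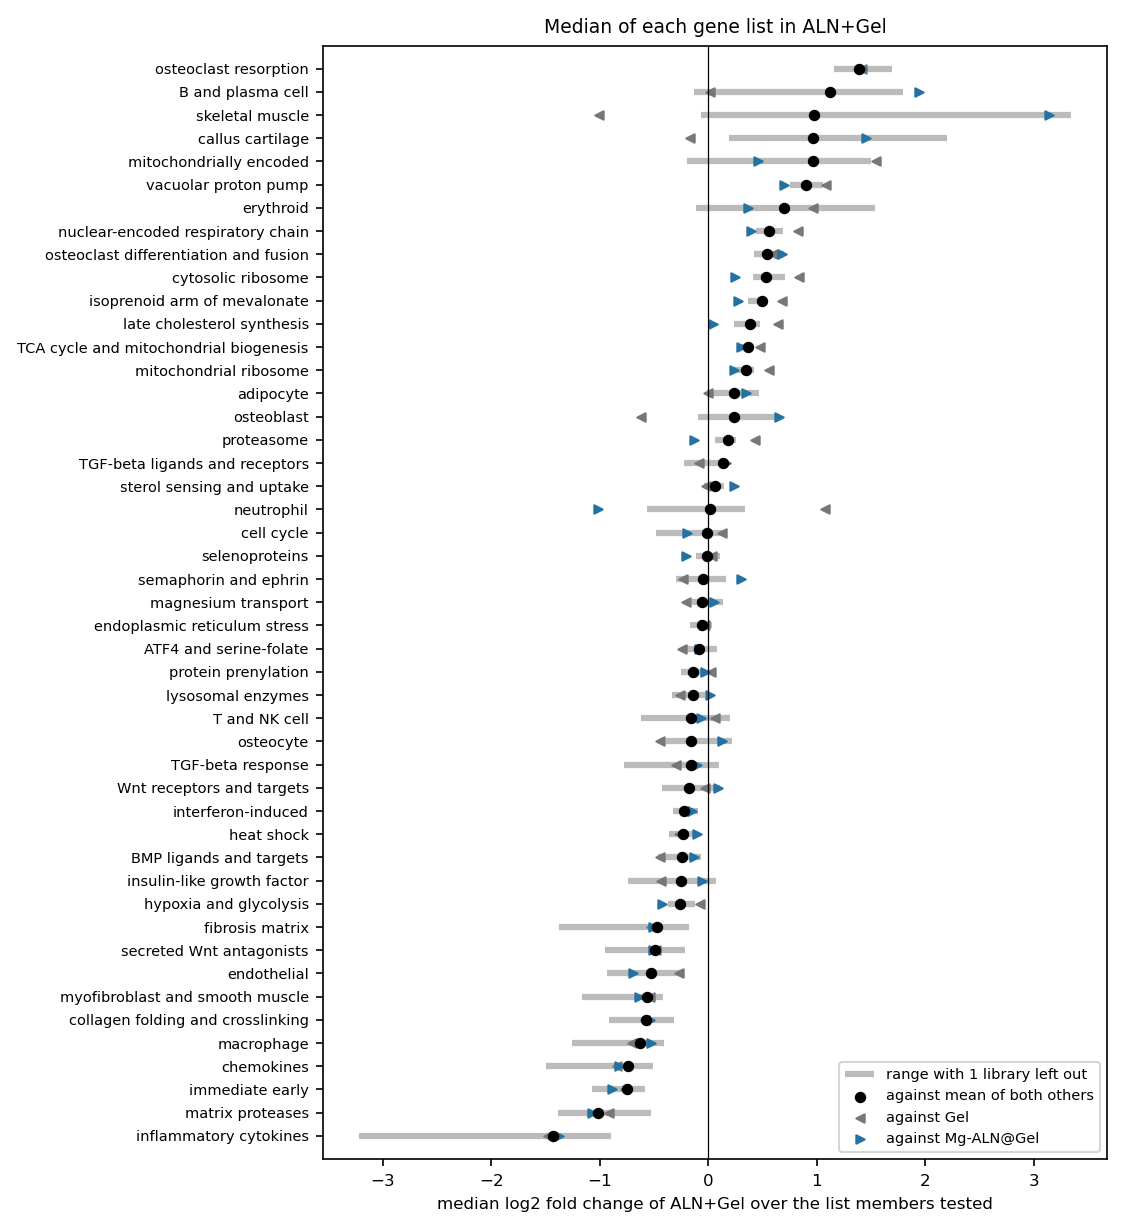
Median log2 fold change of ALN+Gel over the tested members of 47 gene lists, against the mean of both other gels (black points), Gel and Mg-ALN@Gel (grey and blue triangles), with grey bars for the range when 1 library is left out. Osteoclast resorption is highest at 1.39 with a narrow bar, and inflammatory cytokines lowest at −1.43 with a wide one, from −3.22 to −0.89.

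Further single genes with low unadjusted p-values came from varied functions. Pax8, a transcription factor of thyroid and kidney, measured 46.2, 45.6 and 26.8 CPM in ALN+Gel, 15.9, 8.29 and 6.26 CPM in Gel and 8.11, 11.1 and 9.83 CPM in Mg-ALN@Gel, a log2 fold change of 1.96 against Gel and 2.03 against Mg-ALN@Gel. Ccdc3, a secreted protein of fat and endothelium, measured 26.8, 32.7 and 25.1 CPM in ALN+Gel, 15.2, 8.29 and 6.83 CPM in Gel and 3.46, 5.95 and 5.58 CPM in Mg-ALN@Gel, a log2 fold change of 1.99 ± 0.29 (SE). Sema5a, a guidance protein, measured 142, 88 and 124 CPM in ALN+Gel, 67.9, 54.2 and 39.6 CPM in Gel and 24.3, 14.4 and 33.4 CPM in Mg-ALN@Gel. All 3 had edgeR adjusted p-values of 0.159 to 0.186, DESeq2 adjusted p-values under 0.05 and no overlap with the other groups.

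Gsap (1.28), Rufy4 (1.31), a regulator of autophagy and lysosomes, Cpped1 (1.14), Msantd3 (1.02) and the mitochondrial carrier gene Slc25a43 (1.45) completed the 12 genes named for the lowest p among those higher. Aldh1l2, a mitochondrial enzyme of folate metabolism, led the remaining lower ones at 15.5, 22.9 and 28 CPM in ALN+Gel, 46.9, 52.9 and 53.4 CPM in Gel and 37.6, 48 and 53.7 CPM in Mg-ALN@Gel, a log2 fold change of −1.14 ± 0.22 (SE), and it was the 1 separated member of 20 genes of the ATF4 and serine-folate list, whose median was −0.08. Kctd14 (−1.38) and Phlda1 (−1.26) closed that set of 12.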

How the data were processed

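Messenger RNA of 9 rat femoral fracture samples was sequenced, 3 per gel, with groups and replicate numbers taken from the titles. The authors deposited whole-number read counts per gene, not normalized, and FPKM values. An FPKM value equals the count over gene length and over 1 constant per library, 0.804 to 1.19 times the library's total count. The submitters' processing notes list, with no role, edgeR 3.22.5, DESeq2 1.20.0, featureCounts 1.5.0-p3, StringTie 1.3.3b, HISAT2 2.0.5 and fastp. The genome build is not given in the sources used here, nor whether counting used strand, so overlapping genes and near-identical copies are uncertain.

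In R 4.3.3, counts were filtered by filterByExpr, scaled by TMM and fitted with edgeR 4.0.16 (quasi-likelihood, 1 coefficient per group). ALN+Gel was tested against the mean of the other 2 coefficients, and against each, with two-sided p-values adjusted over 15460 genes by the Benjamini-Hochberg method (threshold 0.05). SEs were obtained as fold change over root F. DESeq2 1.42.0 (94 adjusted p-values were NA), limma 3.58.1 (voom with quality weights, and log2(FPKM + 0.1)) and other scalings, filters, designs and left-out libraries were alternatives. Separation was judged on CPM, and the 2-fold gap after adding 0.5 CPM. Scripts were tested on simulated data.

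The rule for named genes took 13 fixed genes, the 12 higher and 12 lower protein-coding separated genes with the lowest p whose higher arm averaged 2 CPM or more, up to 8 each way with the widest gap, and up to 3 separated members of each list, 78 in all, some of which are not reported here. Other genes named are list members, or unnamed loci with a 2-fold gap, chosen after their values were seen. The members and the 47 lists (902 entries tested) were chosen with earlier results of these data known. List medians carry no test.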

Additional observations from a re-analysis of the deposited data

How the results depend on the processing

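Called genes numbered 0 in edgeR under all scalings, filters and designs tried, 222 with DESeq2 (170 higher, 52 lower) and 231 with limma-voom, and 0 to 1 with 1 library left out, the 1 without ALN+Gel library 3. For differences from both gels, DESeq2 called 12. Between Mg-ALN@Gel and Gel, DESeq2 called 51. Genes at an unadjusted p under 0.05 numbered 1339, 2719 with limma-voom, and 757 (without ALN+Gel library 1) to 2002 (without Gel library 1) with 1 library left out. Without ALN+Gel library 2 they were 569 higher and 626 lower, and without ALN+Gel library 3 815 higher and 853 lower, so the surplus of higher genes rests on both. Genes with both pairwise p-values under 0.05 numbered 448, 286 without scaling, 1067 with limma-voom, 275 with the mitochondrial share as a covariate, and 249 to 768 with 1 library left out. Separated genes numbered 697 and ran from 795 to 1937 (without ALN+Gel library 3) with 1 library left out. Genes with a 2-fold gap numbered 15 and ran from 16 to 101 (without Gel library 1). Fewer libraries have to be separated in those counts, which raises them by construction. Without the 2 libraries of highest mitochondrial share, chosen after seeing the data, the last 4 of these counts were, in the same order, 695, 202, 1413 and 40.

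The log2 fold change of Ccn2 (−0.02) turned to 0.0057 without scaling, 0.0026 with limma-voom and 0.37 with the mitochondrial covariate, and with 1 library left out it ran from −1.02 to 0.69. The other 77 named genes kept their sign in every alternative. The cause of these changes was not tested. List medians kept their sign in 35 of 47 lists without ALN+Gel library 1, and in 40 to 44 without any other library.

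With the replicate number as a replicate block edgeR called 0 genes, with 957 higher and 607 lower at an unadjusted p under 0.05 and 537 with both pairwise p-values under 0.05. The block changed no call. Deviations from the group means correlated at 0.34, 0.42 and 0.23 between same-numbered Gel and ALN+Gel libraries, which may be paired, and at 0.13, −0.12 and −0.13 for ALN+Gel with Mg-ALN@Gel, so the numbers did not pair all 3 groups. Low counts limit Sost, Tmco3, Rfx6, Cd207 and the unnamed loci, most of whose libraries outside ALN+Gel held under 30 counts.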

Other observations

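Lists of other cell types held few separated members, as lists of this size would at the share over all genes tested (3.51% upward, 1% downward). The 17 erythroid genes all had positive values, with a median log2 fold change of 0.70 (−0.11 without ALN+Gel library 1, 1.54 when library 1 of Gel was omitted) and none separated, and summed levels of 3 erythroid markers were 23.7 to 304 CPM in ALN+Gel, 6.09 to 188 CPM in Gel and 2.08 to 252 CPM in Mg-ALN@Gel. Of 16 B and plasma cell genes 15 were positive, with a median of 1.12, which was −0.13 when ALN+Gel library 1 was omitted and 1.80 when library 1 of Gel was. The 19 skeletal muscle genes had a median of 0.97, made of −1.01 against Gel and 3.14 against Mg-ALN@Gel. It was −0.07 when ALN+Gel library 1 was omitted, 3.35 when library 3 of Gel was and −0.11 with the 6 other libraries as 1 group. Of 17 endothelial genes 14 were negative, with a median of −0.53 (−0.24 without ALN+Gel library 1) and none separated. Of 17 T and NK cell genes Cd4, which rat macrophages also express, was separated, at 198, 203 and 124 CPM in ALN+Gel, 120.4, 103 and 100 CPM in Gel and 48.2, 69.7 and 64.1 CPM in Mg-ALN@Gel, a log2 fold change of 1.11 ± 0.21 (SE). Of 12 adipocyte genes Lipe, the hormone-sensitive lipase, was separated downward at −0.84 ± 0.25 (SE).

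The remaining lists had medians from −0.26 to −0.01. The 23 cell cycle genes had a median of −0.01 with 11 positive and 12 negative, and none was separated. The 16 magnesium transport genes had a median of −0.05 and none separated. The 20 hypoxia and glycolysis genes had a median of −0.26, the 22 semaphorin and ephrin genes −0.05 and the 14 insulin-like growth factor genes −0.25, none of them with a separated member. Of 15 heat shock genes, with a median of −0.24, the mitochondrial chaperone gene Hspd1 was separated upward at 0.58 ± 0.20 (SE).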
